A study of Paulownia elongata with 2 samples.

Results

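In leaves of Paulownia elongata, 138 assembled genes had a mean transcript length that differed between salt-irrigated and control plants while the ratio of their mean normalized totals, salt over control, stayed within 1.5-fold. They were taken from 6644 eligible genes, which in turn came from 58997 assembled genes. An assembled gene was eligible if it had at least 2 assembled transcripts, called isoforms here, and at least 30 expected counts in every library. It was selected if the lowest length in 1 treatment was at least 1.1 times the highest length in the other, and if the ratio of the salt mean to the control mean of the normalized total lay between 1/1.5 and 1.5. Of the 138, 40 were longer in salt (0.602% of the eligible genes) and 98 were shorter in salt (1.48%). The genes were thus chosen by measured lengths and totals of these same libraries. Both are given as a description, and so is TPM, an abundance scaled by length, which is computed from the same reads. Names, products and sequences are not paired with the IDs in any table used here, so the genes are called by their assembly IDs and no function is given.

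The study compared leaf transcripts of potted trees irrigated with salt water with those of trees irrigated with water, by RNA-seq of total RNA. In the salt treatment, 3-year-old potted trees received 1.5 L of 125 mM NaCl once a day for 10 days. Control trees of the same age, in the same potting soil and greenhouse, received 1.5 L of water. Each treatment is 1 record that merges 2 replicates, and each record holds 2 library files, taken here as 2 salt libraries (SS1 and SS2) and 2 control libraries (AC1 and BC1). The label WT stands on the control record only, and no transgene or mutation is named for either treatment. The files of the salt record are SS1 and SS2, but its text lists SS2 and SS4. Whether SS1 and SS2, or AC1 and BC1, are separate plants is not stated, so the spread between them may be technical. The tissue label could not be compared with marker genes, since the IDs carry no names.

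Plant genes commonly give rise to several transcripts, through alternative splicing, alternative start sites or alternative ends. Retention of an intron is a frequent form of alternative splicing in plants, and salt and other stresses are known to alter splicing patterns in Arabidopsis. The transcripts of 1 gene can therefore change in proportion while their sum stays the same. RSEM, the program that made the library files, gives each gene a length that is the average of its isoform lengths, weighted by their estimated abundance. A shorter mean length in a library means that more of the estimated abundance was placed on shorter isoforms. By definition, a gene with 1 isoform has the same length in all libraries, and the largest difference over the 49348 such genes was 0 bases.

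The libraries held 3969495 (SS1), 4384492 (SS2), 4682184 (AC1) and 3752359 (BC1) rounded expected counts. One assembly component of 7 genes took 2.62% of SS1, 11.64% of SS2, 29.34% of AC1 and 4.38% of BC1. Libraries of 1 treatment were not copies of each other: the chi-square statistic of their counts per degree of freedom was 30.2 for the salt pair and 84.9 for the control pair. SS2 stood apart in length. It was the library with the shortest mean length for 2179 eligible genes, against 1439 in SS1, 1685 in AC1 and 1651 in BC1. The gap between length and effective length reflects the mean fragment length. Over long assembled genes with 1 isoform, it had a median of 167.5 bases in SS1, 167.1 in SS2, 168.8 in AC1 and 170.7 in BC1. The part of these differences in the results below was not tested.

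Lengths that did not overlap between treatments were found far more often among eligible genes than gaps of 1.1-fold. A random order of 2 libraries against 2 would also separate many genes, and no excess over that was tested. Both salt libraries exceeded both control libraries for 1093 eligible genes (16.5%), and both lay below for 1451 (21.8%). The 1.1-fold gap was met by 63 genes that were longer in salt (0.948%) and 136 that were shorter (2.05%). The limit on the total then removed 23 of the longer and 38 of the shorter genes. The total limit alone was met by 4787 eligible genes. In leaf RNA, a shift in the mix of cells cannot be told apart from a shift within cells. The mean length of all eligible genes was longer in salt for 2966, shorter for 3585 and equal for 93, and the median ratio of salt to control was 0.9993.

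**Figure D1:**
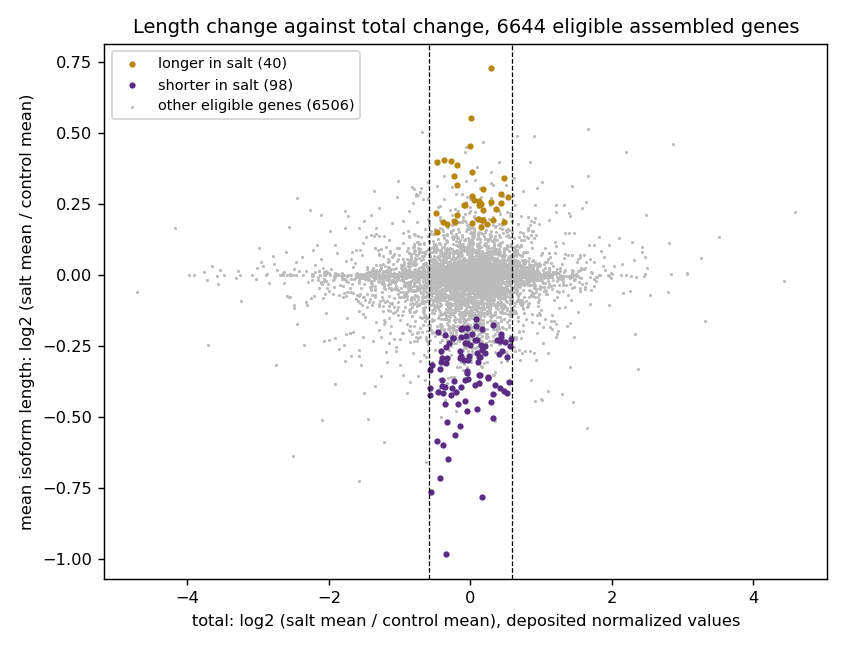
Each point is 1 of the 6644 eligible genes, with the log2 ratio of the normalized total (salt over control) on the x axis and the log2 ratio of mean isoform length on the y axis; dashed lines mark the 1.5-fold limits on the total. The 40 genes longer in salt lie between 0.15 and 0.73 on the y axis and the 98 shorter in salt between -0.98 and -0.15, while other genes past the same length ratios lie outside the dashed lines or had overlapping or closer lengths between treatments.

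The 98 genes that were shorter in salt had a median length of 1554 bases in salt and 1951 bases in control, over genes and with the libraries of a treatment averaged. The ratio of salt to control had a median of 0.808 over the 98 genes, and it ranged from 0.505 to 0.899. In bases, the difference between salt and control had a median of -367.5 and ran from -2149 to -124.7. The 40 genes that were longer in salt had a median length of 1881 bases in salt and 1557 bases in control. Their ratio had a median of 1.189 with a range of 1.11 to 1.657, and their difference had a median of 308.5 bases. The gap itself, the fold by which the nearest libraries of the treatments were apart, reached 1.678 among shorter genes and 1.243 among longer ones. A gap of at least 1.2 was found in 18 of the 98 shorter genes and 5 of the 40 longer genes, and a gap of at least 1.5 in 3 shorter genes and no longer gene.

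**Figure D2:**
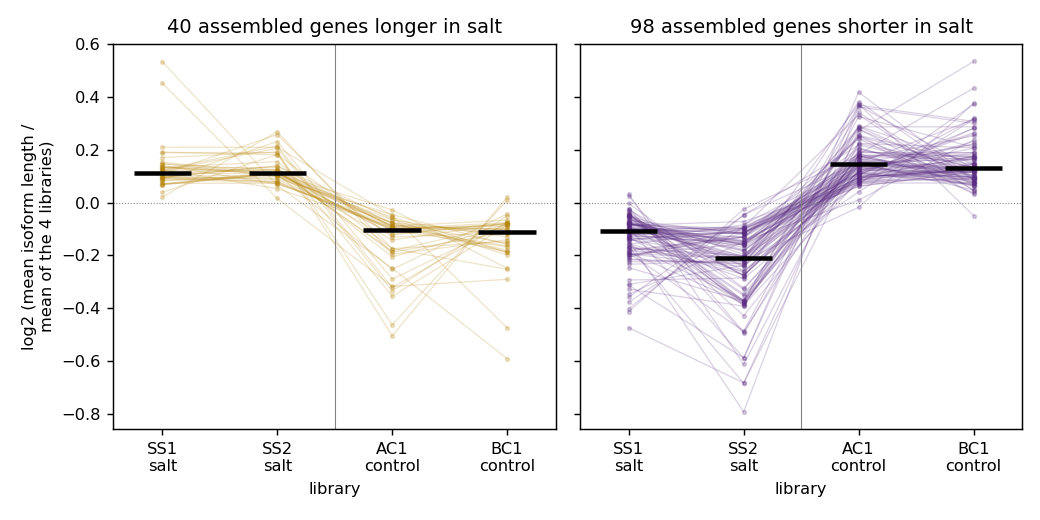
Lines join the values of 1 gene in the 4 libraries on the x axis; the y axis is the log2 ratio of its mean isoform length to its own mean over the libraries, and black bars are medians over the 40 genes longer in salt (left) and the 98 shorter in salt (right). The shorter genes have a median of -0.107 in SS1 and -0.209 in SS2, against 0.148 in AC1 and 0.130 in BC1.

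Within the shorter genes, the salt libraries were not alike. SS2 was the shortest of the 4 libraries for 73 of the 98 genes and SS1 for 25. The median log2 length relative to the mean of the gene was -0.209 in SS2 and -0.107 in SS1. The medians of the control libraries were closer to each other, at 0.148 in AC1 and 0.130 in BC1. AC1 was longer than BC1 for 51 of the 98, shorter for 42 and equal for 5. The longer genes showed no such split, since the median was 0.112 in both SS1 and SS2, against -0.104 in AC1 and -0.113 in BC1. Among all eligible genes, SS1 was longer than SS2 for 3579 and shorter for 2944. If SS1 was left out, the same rule gave 118 longer and 439 shorter genes, and if SS2 was left out it gave 88 longer and 161 shorter genes. The same rule gave 134 longer and 218 shorter genes without AC1, and 163 and 229 without BC1. With fewer libraries the length gap is easier to meet, whereas the limit on the total is not. Of the 138 genes, 117 were selected again without SS1, 114 without SS2, 102 without AC1 and 117 without BC1. The shorter genes were the larger class in these 4 counts.

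The gene with the largest gap was TR30520|c1_g1, which has 4 isoforms and was shorter in salt. Its mean length was 2354 bases in SS1 and 2037 bases in SS2, against 3951 bases in AC1 and 4738 bases in BC1. Both salt libraries lay far below both control libraries, with means of 2196 ± 224 bases in salt and 4344 ± 556 bases in control (SD, n = 2 each), a log2 ratio of -0.98. Its expected counts were 255 in SS1 and 181 in SS2, against 204 in AC1 and 193 in BC1. The normalized totals were 202 in SS1 and 164 in SS2, against 238 in AC1 and 224 in BC1. The counts overlapped between treatments, but both salt libraries lay below both control libraries once normalized. The ratio of normalized totals was 0.791, and edgeR's quasi-likelihood fit gave a log2 fold change of -0.39 (SE 0.34). TPM, which divides by length, was 27.7 in SS1 and 22.1 in SS2, against 13.4 in AC1 and 10.8 in BC1. So this gene had a salt to control ratio of 2.065 in TPM and 0.791 in normalized total, from the same reads.

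TR982|c3_g2, with 2 isoforms, had the next largest gap among the genes that were shorter in salt. Its length was 2800.1 bases in SS1 and 2313 bases in SS2, against 4492 bases in AC1 and 4306 bases in BC1. The treatments were 1.538-fold apart at their nearest libraries, and the means were 2556 ± 345 bases in salt and 4399 ± 132 bases in control (SD, n = 2 each). Its expected counts varied within each treatment, with 439 in SS1 and 152 in SS2, against 103 in AC1 and 268 in BC1. TPM was 39.6 in SS1 and 16.2 in SS2, against 5.90 in AC1 and 16.5 in BC1, so the TPM values of the treatments overlapped. The edgeR log2 fold change of its total was 0.15 with an SE of 0.68, and single libraries decided its sign. It was -0.73 without SS1 and 0.68 without SS2, against -0.41 without AC1 and 0.98 without BC1.

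Among the genes that were longer in salt, TR27282|c0_g2, with 6 isoforms, had the largest gap. Its length was 2473 bases in SS1 and 1787 bases in SS2, against 1437 bases in AC1 and 1133 bases in BC1. Salt libraries averaged 2130 ± 486 bases and control libraries 1285 ± 215 bases (SD, n = 2 each), a log2 ratio of 0.73. The treatments did not overlap, but the salt libraries were further apart from each other than SS2 was from AC1. Its expected counts were 138 in SS1 and 69 in SS2, against 61 in AC1 and 60 in BC1. The normalized total ratio was 1.222, and the TPM ratio was 0.868.

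TR1203|c1_g1, with 2 isoforms, followed with a length of 3142 bases in SS1 and 2321 bases in SS2, against 1842 bases in AC1 and 1877 bases in BC1. The control libraries were nearly equal, and the salt libraries differed by more than the gap between treatments. Salt libraries averaged 2731 ± 581 bases and control libraries 1859 ± 24.9 bases (SD, n = 2 each). Its normalized total was 149 in SS1 and 151 in SS2, against 196 in AC1 and 103 in BC1, and the means of the treatments had a ratio of 1.003.

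The most abundant of the 138 genes were those with the highest mean normalized value in each class. TR12225|c3_g1, with 10 isoforms, had a length of 3438 bases in SS1 and 3543 bases in SS2, against 3017 bases in AC1 and 3105 bases in BC1. Its expected counts were 6848 in SS1 and 3845 in SS2, against 3135 in AC1 and 5831 in BC1. The libraries of each treatment differed little in length although their counts differed widely. The mean length was 3490 ± 73.8 bases in salt and 3061 ± 61.7 bases in control (SD, n = 2 each), and the total ratio was 0.853. TR14379|c9_g1, with 6 isoforms, was the other, and it was also longer in salt. It had 586 bases in SS1 and 579.7 bases in SS2, against 513 bases in AC1 and 516 bases in BC1, a mean difference of 68 bases. That was the smallest difference in bases among the 40 longer genes, on counts of 3260 in SS1 and 1871 in SS2, against 2032 in AC1 and 2568 in BC1. Its component holds 13 assembled genes, 4 of them eligible, so reads may be shared with related sequences. The same may hold for TR30520|c1_g1 (3 genes in the component, 3 eligible), TR1203|c1_g1 (5 and 2) and TR12225|c3_g1 (6 and 2).

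The most abundant genes of the shorter class had far fewer counts. TR30525|c1_g1, with 8 isoforms, had a length of 2345 bases in SS1 and 1866 bases in SS2, against 2752 bases in AC1 and 2778 bases in BC1. Its expected counts were 797 in SS1 and 486 in SS2, against 570 in AC1 and 441 in BC1. Control lengths were nearly equal here, and the salt libraries were further apart, at means of 2105 ± 338 bases in salt and 2765 ± 18.8 bases in control (SD, n = 2 each). TR6267|c1_g3, with 14 isoforms, had 1461 bases in SS1 and 1191 bases in SS2, against 2091 bases in AC1 and 1929.6 bases in BC1. Its log2 length ratio was -0.60, at a total ratio of 0.766 and a TPM ratio of 1.569.

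**Figure D3:**
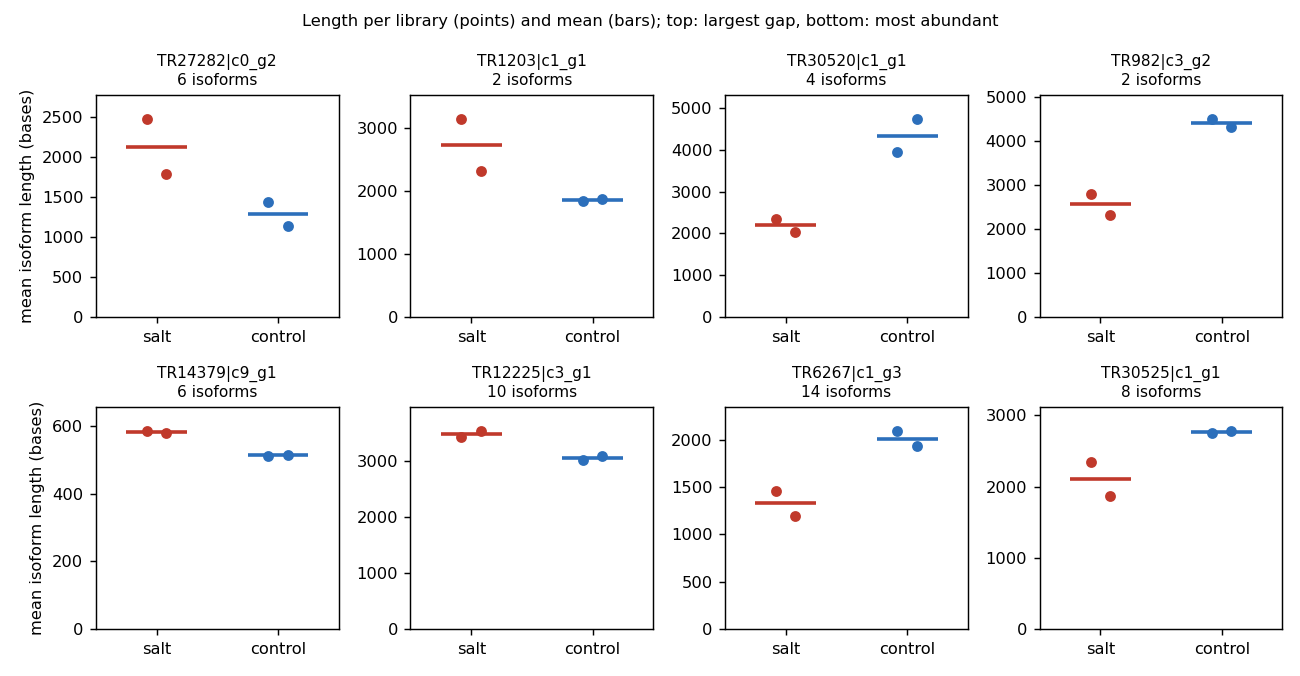
Mean isoform length in bases (y axis, from 0) of 8 genes in salt and control libraries (x axis); points are single libraries, with SS1 left of SS2 and AC1 left of BC1, and bars are means. The top row holds the genes with the largest gap and the bottom row the most abundant ones, each with 2 genes longer in salt followed by 2 shorter in salt; TR30520|c1_g1 has 2196 bases in salt and 4344 bases in control.

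In 8 genes, each with 2 isoforms, the length was the same whole number in both libraries of 1 treatment and lower in the other treatment, so that only the longer isoform had been given abundance in the first. These genes were singled out after their values were seen. In 5 of them the single length was found in control and the genes were shorter in salt. TR39008|c2_g2 had a length of 1620 bases in SS1 and 1549 bases in SS2, against 2481 bases in both control libraries. Its expected counts were 72.2 in SS1 and 55.1 in SS2, against 65.1 in AC1 and 48.9 in BC1. At such counts, a length of exactly 2481 bases in control does not show that the shorter isoform is absent there. TR37723|c0_g1 had 1608 bases in SS1 and 1555 bases in SS2, against 2098 bases in both control libraries, on counts of 105 in SS1 and 56 in SS2, against 40 in AC1 and 43 in BC1. The remaining genes of this kind were TR1384|c0_g1, TR28133|c0_g1 and TR23316|c0_g1, with single control lengths of 4425, 1856 and 1602 bases.

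In the other 3 genes the single length was found in salt, and these were longer in salt. TR34386|c1_g2 had 1781 bases in both salt libraries, against 1488 bases in AC1 and 1108 bases in BC1. TR37787|c0_g1 had 2218 bases in both salt libraries, against 1755 bases in AC1 and 1901 bases in BC1. TR20453|c0_g1 had 1883 bases in both salt libraries, against 1164 bases in AC1 and 1677 bases in BC1. A least share of the shorter isoform follows from the mean length, if that isoform is taken to be as short as the shortest assembled gene, which had 224 bases. That least share was 38.2% in SS1 and 41.3% in SS2 for TR39008|c2_g2, and 18.8% in AC1 and 43.2% in BC1 for TR34386|c1_g2. Over the 8 genes and the libraries with 2 estimated isoforms it ran from 10.9% to 43.3%. Among all eligible genes, a single length in both control libraries only was found in 61, and in both salt libraries only in 27. The 61 genes had more reads in salt than in control for 51 of them, with medians of 96 expected counts in salt and 62.5 in control. The 27 genes, too, had more reads in salt for 19, with medians of 88 in salt and 70.5 in control. That is close to the whole table, since raw expected counts were higher in salt for 5320 of the 6644 eligible genes (80.1%). The part of depth in these patterns was not tested.

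Libraries of 1 treatment were closer in length than the threshold for most genes, but not for all. The median fold between them over eligible genes was 1.021 for the salt pair and 1.022 for the control pair. Among eligible genes, SS1 and SS2 differed by at least 1.1-fold in length for 1096 (16.5%), and AC1 and BC1 for 1075 (16.2%). Among the 138 genes, this held for 46 in the salt pair and 35 in the control pair. The median fold between libraries of a treatment was 1.048 for the salt pair and 1.051 for the control pair in the 138 genes, and the highest was 1.567 in the salt pair and 1.44 in the control pair. The gap between treatments exceeded the fold within both treatments for 89 of the 138 genes, namely 28 of the 40 longer and 61 of the 98 shorter genes. In all eligible genes it did so for 714 (10.7%). The selection asked for a gap of at least 1.1-fold, which raises this share among the 138 genes in advance. The count is read as a description only.

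A test across the 6644 eligible genes with limma on log2 length, salt against control, found no gene (0%) at an adjusted p under 0.05, the lowest being 0.378. Without adjustment, 520 genes (7.83%) had a p under 0.05, of which 214 were longer and 306 were shorter in salt. Of these 520, 93 were among the 138 genes, 29 of the 40 longer and 64 of the 98 shorter ones. That count rests on the lengths that chose the genes and is read as a description only. None of the genes with a 1.1-fold gap passed the test once it was adjusted over the table.

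Totals of the 138 genes were not fixed closely by 4 libraries. The normalized total ratio of salt to control had a median of 1.029 over the 40 longer genes, with a range of 0.718 to 1.444. Over the 98 shorter genes the median was 0.966, with a range of 0.674 to 1.497. These ranges are set by the selection. In edgeR's fit of all 20016 genes with enough counts, the 138 genes had a median SE of 0.40 on the log2 scale of the total, and the 95% interval reached a median of 1.02 to either side of the log2 fold change. The interval reached beyond a 1.5-fold change for 138 of 138 genes, so the fit does not show that their totals were equal in the treatments. The same held for 6644 of 6644 eligible genes. The coefficient of variation between libraries that edgeR estimated beyond counting noise was 48.4%, which may be partly technical.

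The edgeR quasi-likelihood test of totals called no gene (0%) among the 20016 at an adjusted p under 0.05, the lowest being 0.451. Without adjustment, 1747 genes (8.73%) had a p under 0.05, with 783 higher and 964 lower in salt, and 0 of the 1747 were among the 138 genes. DESeq2 on the same counts called 345 of the 19951 genes with an adjusted p (1.73%), again 0 of the 138. The selection kept the total ratios of the 138 genes within 1.5-fold. The narrowest edgeR interval among them reached 0.816 to either side on the log2 scale. Few or no calls among the 138 were thus set in advance, and nothing is read from them. Without AC1, in which 1 component took 29.34% of the counts, edgeR called 1245 of 22754 genes (5.47%), and without BC1 it called 477 of 23147 (2.06%). Without SS1 and without SS2 it called 0. Of the 138 genes, 1 was called without AC1 and 0 without BC1, where the lone control library is assumed to vary like the salt libraries. That gene, TR14044|c4_g2, was singled out after its values were seen. Its normalized total was 301 in SS1 and 209 in SS2, against 305 in AC1 and 55.7 in BC1, so the control libraries lay on both sides of the salt libraries. Its log2 fold change without AC1 was 2.14 (SE 0.54).

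The authors' deposited table of 646 genes with different expression held 322 genes higher in salt and 324 genes higher in control. It held 0 of the 138 genes and 299 of the 6644 eligible genes (4.5%). The selection used the same totals, so nothing is read from this count.

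TPM separated the classes, because a shorter length raises the TPM obtained from the same number of reads. The selection set a length gap and kept totals within 1.5-fold, so this direction was set in advance. The TPM counts of the classes are read as a description only. TPM of both salt libraries exceeded both control libraries for 62 of the 98 shorter genes and 8 of the 40 longer genes, against 2885 of the 6644 eligible genes (43.4%). It lay below both control libraries for 0 of the 98 and 5 of the 40, against 471 eligible genes (7.09%). The TPM ratio of salt to control had a median of 1.595 in the shorter genes, 1.073 in the longer genes and 1.293 in all eligible genes. The normalized total, which does not use length, had a median ratio of 1.002 in all eligible genes, so the scales differ by a shift of the whole table. A TPM ratio of at least 1.5 was found in 62 of the 98 shorter genes and 1 of the 40 longer genes, against 2174 eligible genes (32.7%). If TPM had served as the total in the selection, 41 genes would have been longer and 49 shorter in salt, and 75 of the 138 would have been selected again. The share of shorter genes would then be 54.4%, against 71% with the normalized totals.

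**Figure D4:**
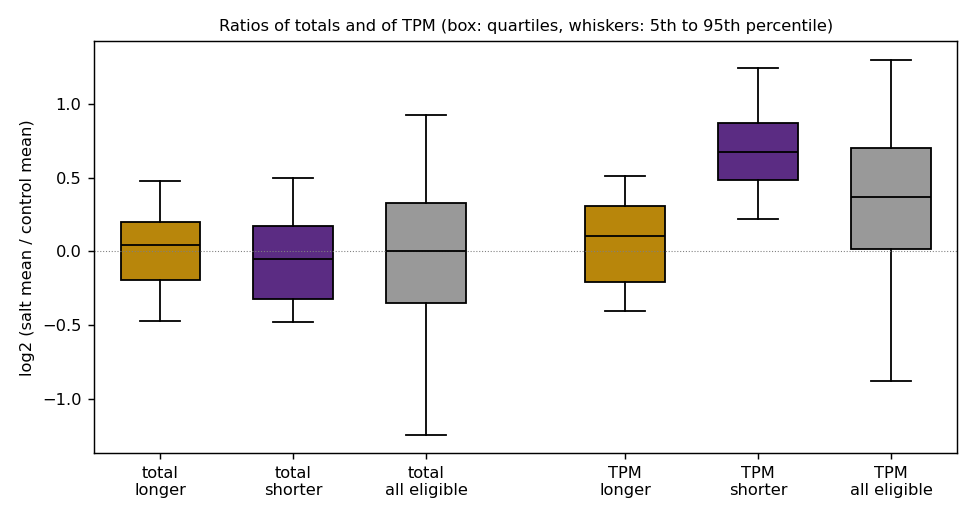
Log2 ratios of the salt mean to the control mean (y axis) of the normalized total (left) and of TPM (right) for the 40 genes longer in salt, the 98 shorter in salt and all 6644 eligible genes; boxes are quartiles with the median, and whiskers run from the 5th to the 95th percentile. The boxes of the totals include 0 in all 3 sets, whereas the TPM ratio has a median of 1.595 in the shorter genes, 1.073 in the longer genes and 1.293 in all eligible genes.

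The share of eligible genes selected was lowest for genes with 2 isoforms, and no test of this difference was run. Of eligible genes with 2 isoforms, 26 of 2336 were selected (1.11%), and of those with 10 or more, 14 of 319 (4.39%). Genes with 9 isoforms had the highest share, 4.88%. Shares for 3 to 8 isoforms lay at 1.83% to 2.77%, with no steady order. The 138 genes had a median of 4 isoforms, and the eligible genes a median of 3. The share with 5 or more isoforms was 40.6% among the 138 genes, 19 longer and 37 shorter, and 29.5% among eligible genes.

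The mean expected count of the 138 genes had a median of 150.9, against 168.9 in eligible genes, and the lowest count of a gene in any library had a median of 100.5, against 101. In 5 groups of equal size by mean expected count, from low to high, 2.01%, 2.35%, 2.33%, 2.48% and 1.2% of eligible genes were selected. The most abundant group, from 361.5 counts upwards, gave 8 longer and 8 shorter genes. In 5 groups by mean length, 14 of 1329 genes were selected in the shortest group and 39 of 1329 (2.93%) in the longest.

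**Figure D5:**
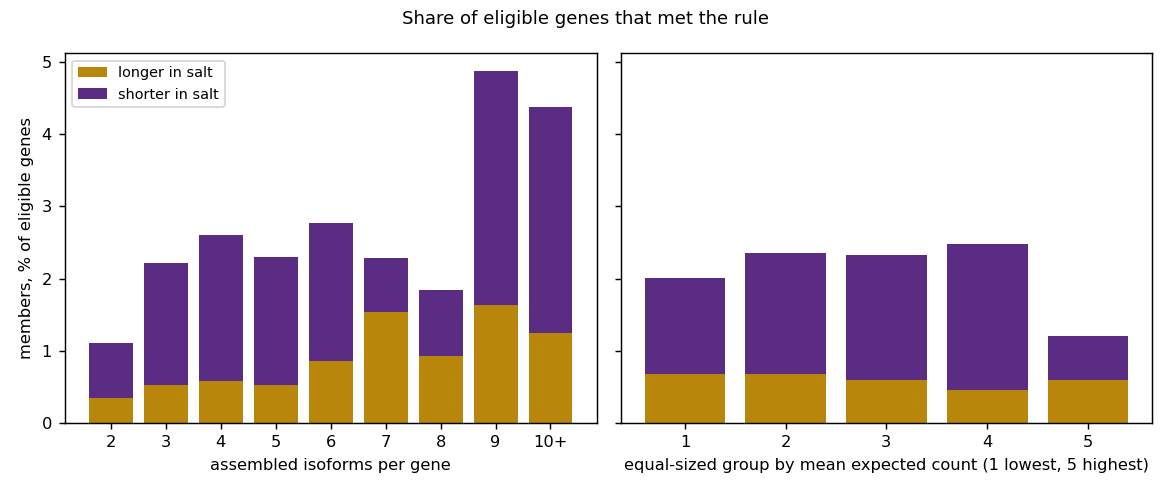
Share of eligible genes that were selected, in percent (y axis), by the number of assembled isoforms (left) and by 5 groups of equal size on the mean expected count over the 4 libraries (right); bars stack genes longer in salt and genes shorter in salt. The share is 1.11% at 2 isoforms and 4.39% at 10 or more, and 1.2% in the most abundant group.

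The 138 genes came from 138 different assembly components, so no component gave more than 1. In 22 of them (15.9%) another eligible gene lay in the same component, against 14.8% of eligible genes. For 49 genes (35.5%) the component held no other assembled gene, against 36% of eligible genes. An assembler can also place alleles or gene copies together as isoforms, and without sequences these cannot be told apart from alternative transcripts.

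The authors' deposited Cuffdiff table gives log2 ratios per assembled transcript for some isoforms of these genes. It names its conditions q1 and q2 without saying which treatment each is, and it describes the same treatments in the same study, so its values are neither independent nor directed. In the authors' deposited table, 40 of the 217 isoforms of the longer genes and 93 of the 486 isoforms of the shorter genes were found. A gene could be described if its longest and shortest isoforms in the authors' deposited table differed at least 1.1-fold in span. In the authors' deposited table, the log2 ratio of the shortest isoform minus that of the longest was below 0 in 9 of 9 such longer genes, with a median of -1.37. For the shorter genes, the same difference in the authors' deposited table was above 0 in 19 of 21, with a median of 1.11. The other eligible genes had a median difference of 0.07 in the authors' deposited table, and it was above 0 in 788 of 1450 (54.3%). Most isoforms of the longer and shorter genes were not found there, so the longest found need not be the longest of its gene. For TR7676|c0_g2, shorter in salt, it spanned 1741 bases, below the lowest mean length, 3013 bases in SS2. For TR12219|c4_g1, longer in salt, it spanned 2546 bases, below the lowest, 2661 bases in AC1. For TR25298|c1_g2, shorter in salt, it spanned 1263 bases, below the lowest, 1627 bases in SS1. In some other genes, but not in all, it exceeded each mean length. The difference thus describes the isoforms found and does not show which isoforms changed the mean length.

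A pair of genes at the ends of the ranges of this difference, chosen after their values were seen, show what it is. TR1178|c3_g2 was shorter in salt, with 2469.7 bases in SS1 and 2013 bases in SS2, against 2796 bases in AC1 and 3001 bases in BC1. Of its isoforms found in the authors' deposited table, the shortest had a log2 ratio of 2.64 and the longest one below 0, a difference of 3.63. The longest found spanned 1858 bases, below the mean length in each library. It need not be the longest isoform of the gene, so the pair does not show which isoforms changed the mean length. TR37342|c0_g1 was longer in salt, with 1308 bases in SS1 and 1347 bases in SS2, against 1184 bases in AC1 and 1151 bases in BC1. Of its isoforms in the authors' deposited table, the shortest had a log2 ratio of -1.80 and the longest 0.34, a difference of -2.14. In both genes the isoforms compared had log2 ratios of opposite sign.

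The thresholds cut through a continuous range. Just inside the length gap lay TR9228|c0_g1 and TR34840|c0_g1, both longer in salt with a gap of 1.1001, and TR24544|c2_g1, shorter in salt with 1.1002. Just outside lay TR5985|c0_g1, longer in salt, whose nearest libraries had 3537 bases in SS1 and 3216 bases in BC1 and whose gap rounds to 1.1 but fell short of it. Next came TR22734|c1_g2, shorter in salt with 1.0995, and TR18493|c2_g1, longer in salt with 1.0991. On the side of the total, the genes nearest to the limits inside were TR22574|c1_g1 with a ratio of 0.6738 and TR37355|c1_g1 with 1.4973. Those nearest outside were TR1148|c1_g1 with 0.6606 and TR7403|c0_g1 with 1.5145.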

How the data were processed

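Leaf RNA was sequenced from salt-treated and control trees, and 4 libraries were used. The submitters' processing notes name RSEM 1.3.0, Cuffdiff 2.2.1, Cufflinks 2.1.1, TopHat2 2.0.9 and Bowtie2 2.1.0. The assembler and all settings were not given in the sources read. Library files are RSEM gene results, per the file headers, with an expected count, a TPM, a length and an effective length for each gene. Expected counts in the deposited files need not be whole (3556 to 4746 values per library were not), because reads that match several transcripts are shared, which also sets the lengths. The authors' TPM values divide by effective length. The normalized signal deposited by the authors equals each library's expected count times 1 constant, 0.792 for SS1, 0.904 for SS2, 1.164 for AC1 and 1.161 for BC1. The ratio of control over salt in the authors' deposited list of 646 genes gave its direction. Log2 ratios of the Cuffdiff table are used as deposited by the authors. No column of another sample was found in the tables used.

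Expected counts were rounded to whole numbers and tested with edgeR 4.0.16 in R 4.3.3 (quasi-likelihood, TMM, filterByExpr), with Benjamini-Hochberg adjustment over all genes tested. The SE of a fold change was taken from its F statistic. Log2 lengths were tested with limma 3.58.1 with trend over the eligible genes. Neither had covariates. Alternatives included DESeq2 1.42.0 and each library left out. Both tests were tried on simulated data with known changes. The simulated length changes were larger than any here, and the simulated totals varied less between libraries. The trial thus does not show what size of change the tests could detect here. Python 3.11.15 with pandas 2.3.3 was used for the rest. The named genes were the 2 longer and the 2 shorter genes with the largest gap, and the same numbers with the highest mean normalized value; others are said to be chosen after their values were seen. The members and lists were chosen with earlier results of these data known. The labels call AC1 and SS2 replicate 1 of their treatments. BC1 and SS1 are what remains, since the labels number SS4 and not SS1. Neither pair is known to share a plant. Sampling noise of the counts, without molecular identifiers, is not the spread between plants.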

Additional observations from a re-analysis of the deposited data

How the results depend on the processing

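Genes that were shorter in salt outnumbered longer ones under each alternative run for the selection. The selection gave 138 genes, 40 longer and 98 shorter in salt. With the treatments at least 5% apart in length, 353 genes were selected (118 longer, 235 shorter), at 20% apart 23 (5 and 18), and at 50% apart 3 (0 and 3). A minimum of 100 expected counts gave 70 (20 and 50) and a minimum of 10 gave 167. A total ratio of at least 0.8 and at most its inverse gave 84 (28 and 56), and a limit of 2-fold gave 163. Totals from TPM gave 90 (41 and 49), from TMM-scaled CPM 136, and from CPM on library totals 107; lengths from the effective length gave 169. Leaving out 1 library gave 249 to 557 genes, 88 to 163 longer and 161 to 439 shorter. It also kept only 102 to 117 of the 138 genes. The limma test of length made 0 calls in each alternative tried, the replicate block included. For totals, edgeR made 0 calls with RLE size factors, with no filter on low counts and with a replicate block, DESeq2 made 345, and leaving out 1 library gave 0 to 1245 calls; the cause was not tested. With the replicate block, which pairs AC1 with SS2 by their labels and BC1 with SS1, whose number is not given, the unadjusted p was under 0.05 for 574 lengths and 1479 totals. The number of libraries, 2 per treatment, limits the precision of each ratio. The log2 length ratio moved by at least the SD of log2 length within treatments in 15 checks of named genes and by less in 65. Its sign could not turn when 1 library was left out, since the selection kept the treatments apart. The log2 fold change of the total moved by more than its SE in 7 checks of named genes and by less in 121. Among these 7 checks, leaving out 1 library turned its sign for TR982|c3_g2, TR1203|c1_g1, TR27282|c0_g2, TR20453|c0_g1 and TR37723|c0_g1. Among the 121 it also turned for TR12225|c3_g1, TR1384|c0_g1, TR23316|c0_g1, TR28133|c0_g1, TR30525|c1_g1, TR34386|c1_g2 and TR37787|c0_g1. The direction of these totals was thus not stable.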
